A study of Mus musculus with 79 samples.

Results

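Single neuro-mesodermal progenitors of the mouse embryo were compared by how much T they held. T (Brachyury) is a T-box transcription factor, and all 53 single cells measured in the study were ranked by its FPKM, the number of fragments mapped to a gene, scaled to its length and to the cell's total. The 18 cells with the highest values are called T-high and the 18 with the lowest T-low, so that 36 of 53 cells enter the comparison and 17 lie between the groups. Both groups have the same genotype, stage and sort. They are T+ Sox2+ cells of wild-type (WT) C57BL/6N embryos at Theiler stage 13 (TS13), sorted by flow cytometry from the caudal ends of pooled embryos that had been grown from embryonic stem cells by tetraploid complementation, a method that lets the stem cells form the body of the embryo. They were captured on 1 Fluidigm C1 chip, which holds each cell in a capture site of its own.

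Neuro-mesodermal progenitors lie at the tail end of the embryo and feed both the spinal cord and the paraxial mesoderm that forms the somites. T is needed in them for mesoderm, and Sox2 marks neural and progenitor states. T acts with Wnt and FGF signals, and Tbx6 and Msgn1 are factors of the presomitic mesoderm, the next state on the way to somites, while lateral plate mesoderm, which forms limb buds, gut wall and body wall, arises from other cells of the caudal embryo.

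The labels name no animal, and all cells come from 1 pooled sample on 1 chip. Each group is therefore 1 sample, cells are not replicates, and no p-value or standard error is given. Values are shown as the lowest, the median and the highest cell of a group, and as the number of cells with at least 1 FPKM, which is called detected here. A difference is the mean of log2(FPKM + 1) in T-high cells minus that in T-low cells, adjusted by least squares for the number of genes detected in each cell. It is counted as higher or lower where it reached 1 in size, which is 2-fold on that scale. Exact binomial intervals given with a share of cells cover counting error only.

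T was at 428 FPKM in the lowest T-high cell, 560 in the median one and 888 in the highest, against 35.7, 140 and 222 FPKM in T-low cells. The cells were chosen by these values, so the gap between the groups is a description only. T was above 0 in every cell of both groups, and the sort was for T. The ranking had no wide gap at either edge. The last T-high cell had 428 FPKM and the next cell outside 410, while the last cell between the groups had 241 and the first T-low cell 222. Which cells count as T-high depends on the scaling between cells: with FPKM divided by the upper quartile of each cell, 12 of the 18 T-high cells and 16 of the 18 T-low cells stayed in their group. The median T-high cell held 3.99 times the T of the median T-low cell, and the highest cell of all held 24.8 times that of the lowest.

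The median T-high cell had fewer detected genes than the median T-low cell. The numbers were 4075, 5588 and 7997 genes in the lowest, median and highest T-high cell, against 4830, 6196 and 8021 in T-low cells, and differences were adjusted for this number. Over the 53 cells, which share the chip and the composition of their FPKM, Spearman's rho of T with the number of genes was -0.13. Cells of capture sites 41 to 47 stood apart. These 7 cells were 7 of the 8 with the most genes, at 7203 or more, against a median of 5664 in the other cells. Of them 1 was T-high, 2 were T-low and 4 lay between. Without them, the others ranked again, 599 genes were higher and 665 lower in T-high cells. The lateral list, Hand1 and Foxf1 are also given without them below. Other named genes and lists enter without them only in the counts of kept signs at the end. The groups were also unevenly spread over the chip's site numbers, which the labels do not call a batch. T-high and T-low cells numbered 8 and 4 at sites 1 to 19, 6 and 13 at sites 20 to 47, and 4 and 1 at sites 90 to 95. The 53 named genes with a difference of at least 1 in size were chosen in these same cells, so kept signs were favoured. A share of kept signs over all compared genes was not taken. Of the 53, 50 had the same sign within sites 1 to 19 and within sites 20 to 47. A size of 1 was still reached within both by 34. Sites 90 to 95 hold 1 T-low cell and give no such value. The depth of each cell is unknown.

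**Figure D1:**
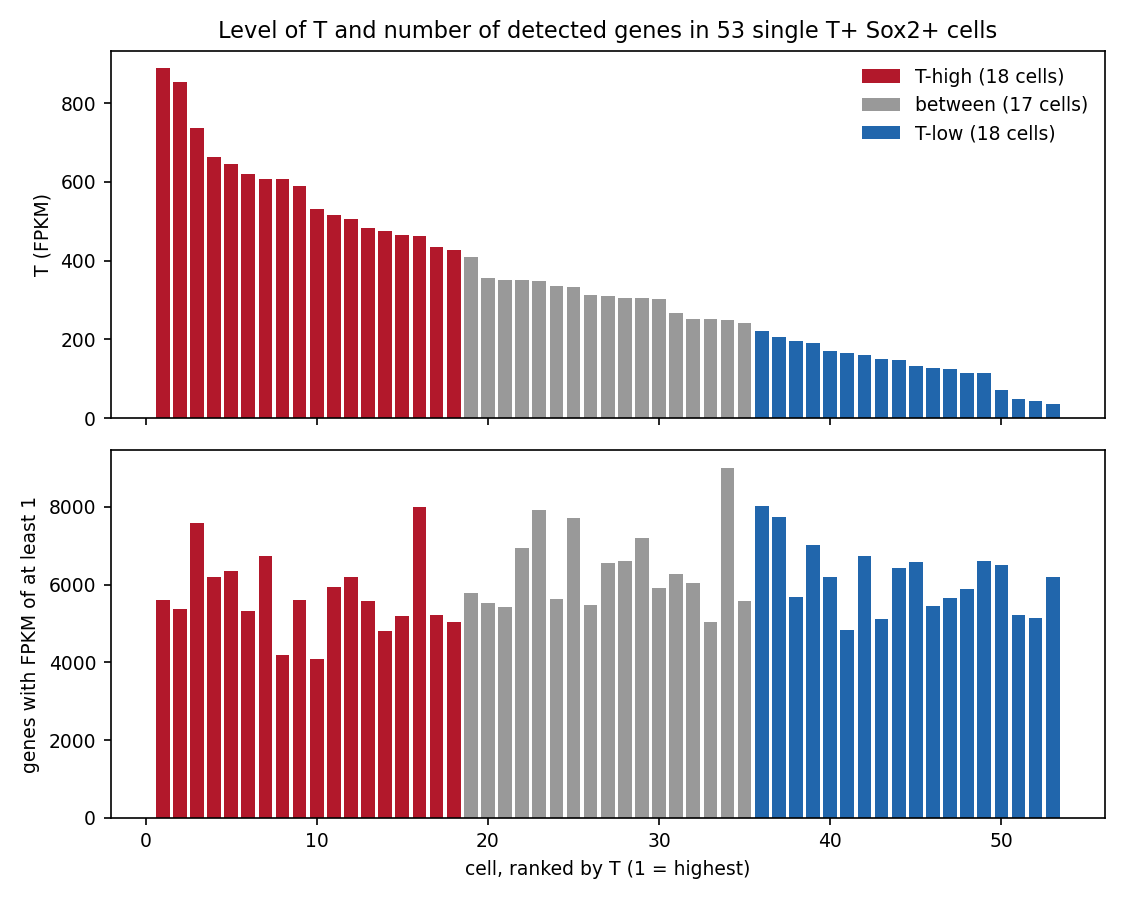
The upper panel shows the FPKM of T in each of the 53 cells in rank order, and the lower panel the number of genes with at least 1 FPKM in the same cell. T falls smoothly along the ranking without a wide gap at 428 and 410 or at 241 and 222 FPKM, and the median T-high cell had 5588 genes against 6196 in the median T-low cell.

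T lies at chr17:8434423-8442496 on the plus strand of mouse build GRCm38. T-box factors bind DNA through a short half-site, written TNACACCT here, where N is any base, and AGGTGTNA on the other strand. The 250 bases before the start of T are shown because T ranked the cells, those of Cited1, a transcriptional co-regulator, because it had the strongest correlation with T, and those of Aldh1a2, the enzyme that makes retinoic acid, because it was the other named gene with the half-site. Sequences are from RefSeq on GRCm38.p6, at chr17:8434173-8434422 (plus), chrX:102252182-102252431 (minus) and chr9:71215539-71215788 (plus), and capitals mark the half-site.
T: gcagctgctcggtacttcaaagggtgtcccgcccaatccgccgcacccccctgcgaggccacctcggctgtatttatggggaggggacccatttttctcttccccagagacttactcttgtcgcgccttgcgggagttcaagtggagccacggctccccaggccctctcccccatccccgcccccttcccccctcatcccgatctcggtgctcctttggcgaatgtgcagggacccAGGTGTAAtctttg
Cited1: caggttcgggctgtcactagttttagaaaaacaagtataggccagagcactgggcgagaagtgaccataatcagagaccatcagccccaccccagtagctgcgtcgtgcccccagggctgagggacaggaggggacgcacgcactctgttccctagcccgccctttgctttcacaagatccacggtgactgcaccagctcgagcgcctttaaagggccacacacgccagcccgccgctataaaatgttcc
Aldh1a2: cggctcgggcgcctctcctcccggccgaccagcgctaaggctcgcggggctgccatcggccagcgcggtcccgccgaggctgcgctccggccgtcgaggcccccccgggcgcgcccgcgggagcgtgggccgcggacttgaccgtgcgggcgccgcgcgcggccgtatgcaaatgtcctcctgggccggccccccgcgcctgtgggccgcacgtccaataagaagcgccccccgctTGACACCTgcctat
Of the 72 genes named by the rule or used to rank the cells, 50 had a promoter in the table. Of these 50 genes, 2 had the half-site in the 250 bases, T and Aldh1a2, in both with its first base 14 bases before the start. It was found in 2.68% of all 32851 promoter windows, on either strand. The 3 windows listed for Cited1 held 0 matches. A match is a description of these letters and shows no binding.

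Of 8568 compared genes, those detected in at least 11 of the 53 cells, 589 (6.87%) were higher and 626 (7.31%) lower in T-high than in T-low cells. Without the adjustment the counts were 340 higher and 907 lower, and the median difference over these genes was -0.14, against -0.01 with it. These counts are the background for every list below. The spread among cells was wide, with a median SD of log2(FPKM + 1) of 2.00 among T-high cells and 1.84 among T-low cells. There were 0 compared genes whose T-high and T-low cells did not overlap. Of the 53 named genes with a difference of at least 1, 9 reached the 11 cells only through the group where they were higher. The filter favoured a difference in these 9. They were Pax6, Akap11, Hist1h2bj, Hist1h3c, Mthfd2l and Stra6l in T-high cells and Aldh1a2, Gmpr and Zfp777 in T-low cells. Of 10 housekeeping genes, 0 were higher and 0 lower, with a median of -0.10. The members of each list and the lists themselves were chosen with earlier results of these data known.

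**Figure D2:**
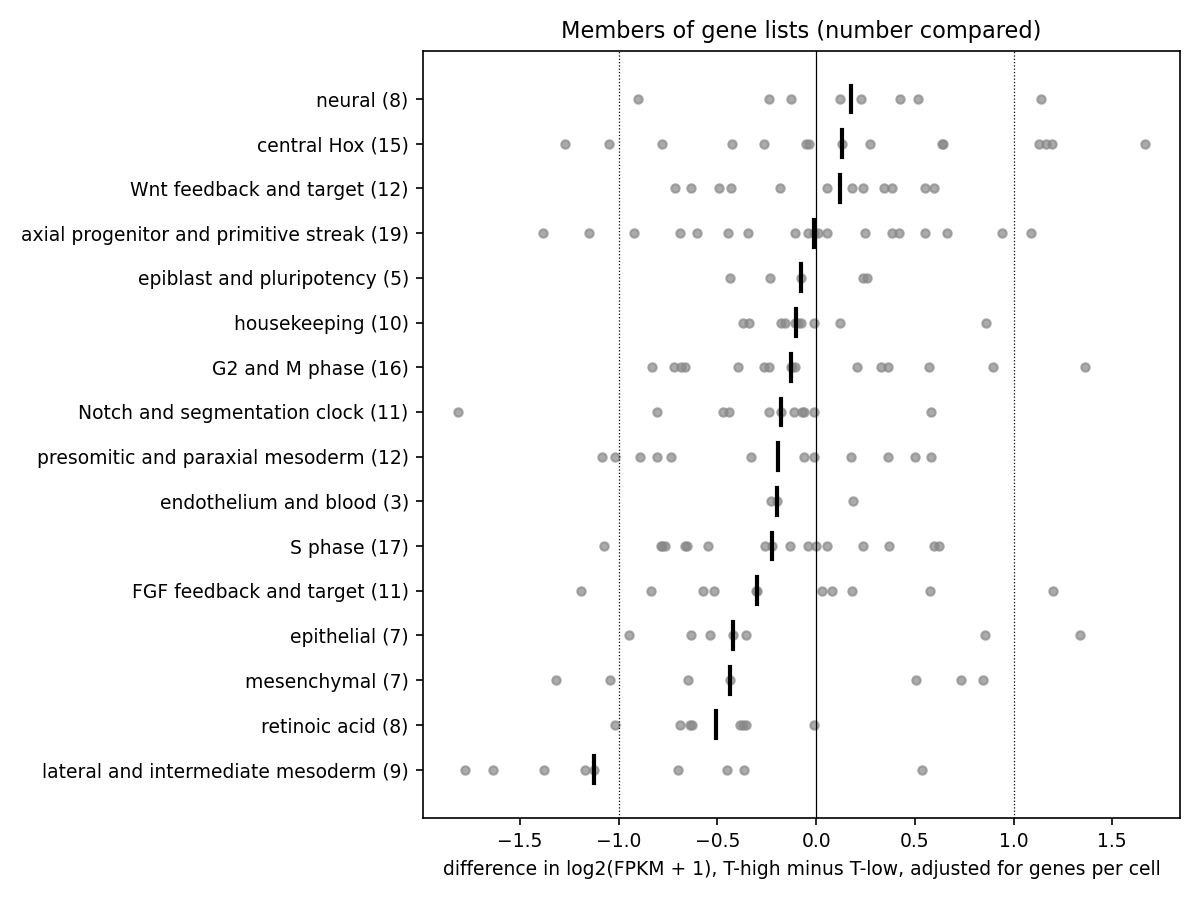
Each grey point is the adjusted difference of 1 gene, T-high minus T-low, in log2(FPKM + 1), and black bars are medians, for the lists with at least 3 compared members (numbers compared in parentheses). Dotted lines stand at a difference of 1 in either direction. The lateral and intermediate mesoderm list has the lowest median of those drawn, -1.13, and housekeeping genes lie at -0.10.

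Some genes of lateral mesoderm were lower in T-high cells, in numbers that changed with the site range and the settings. Of the 13 listed genes of lateral and intermediate mesoderm, 9 were detected in enough cells to be compared, and 5 of them were lower and 0 higher, against 7.31% of all compared genes that were lower. The 5 were Hand1 (-1.78), Foxf1 (-1.63), Hand2 (-1.38), Osr1 (-1.17) and Tbx4 (-1.13), and the median over the 9 was -1.13, or -1.32 without the adjustment. Tbx4 and Prrx1 passed the filter of 11 cells only through T-low cells. The number lower was 1 with a pseudocount of 5 or with 26 cells a group, 2 within the cells with more genes, and 3 under each of 5 other settings. The other 4 compared were Isl1 (0.54), Bmp4 (-0.70), Pitx1 (-0.45) and Prrx1 (-0.36). Lhx1 and Pax2 were detected in too few cells, and Pax8 and Wt1, of the kidney lineage, were listed at 0 in all cells.

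Hand1, a basic helix-loop-helix factor of lateral plate and extraembryonic mesoderm at chr11:57828713-57832147, was at 0, 0 and 118 FPKM in the lowest, median and highest T-high cell, against 0, 17.6 and 77.7 FPKM in T-low cells. It was detected in 6 of 18 T-high cells (33.3%, 95% interval 13.3 to 59.0%) and in 17 of 18 T-low cells (94.4%, 72.7 to 99.9%). The groups overlapped, since the highest of the 36 cells was T-high. Foxf1, a forkhead factor of splanchnic mesoderm at chr8:121084386-121088154, was at 0, 18.2 and 95.9 FPKM in T-high cells, against 10.2, 54.7 and 105 FPKM in T-low cells. Every T-low cell held Foxf1, and 7 T-high cells lay below all of them. It was detected in 12 of 18 T-high cells (66.7%, 41 to 86.7%) and in 18 of 18 T-low cells (100%, 81.5 to 100%).

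Hand2, a relative of Hand1 that acts in limb bud and heart, was detected in 1 of 18 T-high cells (5.56%, 0.141 to 27.3%), at 19.9 FPKM, and in 9 of 18 T-low cells (50.0%, 26 to 74%), at up to 40.5 FPKM. Osr1, a zinc finger factor of intermediate and lateral mesoderm, was detected in 8 T-high cells and 15 T-low cells, with medians of 0.575 and 21 FPKM. Tbx4, a T-box factor of hindlimb and allantois, was detected in 2 T-high cells and 9 T-low cells, with highest values of 22.7 and 46.4 FPKM.

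Several of these genes were detected in the same cells. Of the 9 compared members, the median T-high cell had 3 detected (range 0 to 6) and the median T-low cell 6 (1 to 8), as did the median cell between the groups, with 6 (2 to 8). The 5 genes that were lower were chosen after their values were seen, so fewer of them in T-high cells was fixed in advance. The counts of these 5 that follow are a description only. Of 18 T-high cells 0 held all 5 (0%, 95% interval 0 to 18.5%), and 4 held none. In T-low cells 6 held all 5 and 0 held none. The 6 T-high cells with Hand1 were all among the 12 with Foxf1. The summed FPKM of the list was 0, 69.8 and 287 in the lowest, median and highest T-high cell and 32.9, 165 and 261 in T-low cells. The ranking was not strict, since the cell with the highest T of all held Hand1 at 48.7, Foxf1 at 38.3 and Tbx4 at 12.7 FPKM.

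These differences moved with the capture site. At sites 90 to 95, 0 of 4 T-high cells had Hand1 or Foxf1 detected, and these are 4 of the 6 T-high cells without Foxf1. At sites 20 to 47, Hand1 was detected in 4 of 6 T-high cells and 13 of 13 T-low cells and Foxf1 in every cell of both groups, with Foxf1 medians of 70.3 and 74.2 FPKM in T-high and T-low cells. Within those sites the difference was -0.70 for Hand1, -0.08 for Foxf1, -1.77 for Hand2, -0.34 for Osr1 and -1.74 for Tbx4, with 2 members lower and a median over the list of -0.61. Within sites 1 to 19, with 8 T-high and 4 T-low cells, it was -2.46 for Hand1, -1.07 for Foxf1, -0.17 for Hand2, -0.31 for Osr1 and 0.50 for Tbx4, with 2 members lower and a median of -0.17. Without the 6 cells of sites 90 to 95, the others ranked again, 1 member was lower, Hand1 (-1.40), Foxf1 was at -0.97 and the list's median was -0.75. Without the cells of sites 41 to 47, Hand1 (-1.82) and Foxf1 (-1.52) were lower, while the list's median was -0.66 and 2 of its members were lower. Within the cells with more genes Hand1 differed by -0.66 and Foxf1 by -0.80, below the counted size, and within those with fewer genes by -2.41 and -2.79. The parts that the site and the number of genes per cell play in this difference were not tested beyond these values.

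**Figure D3:**
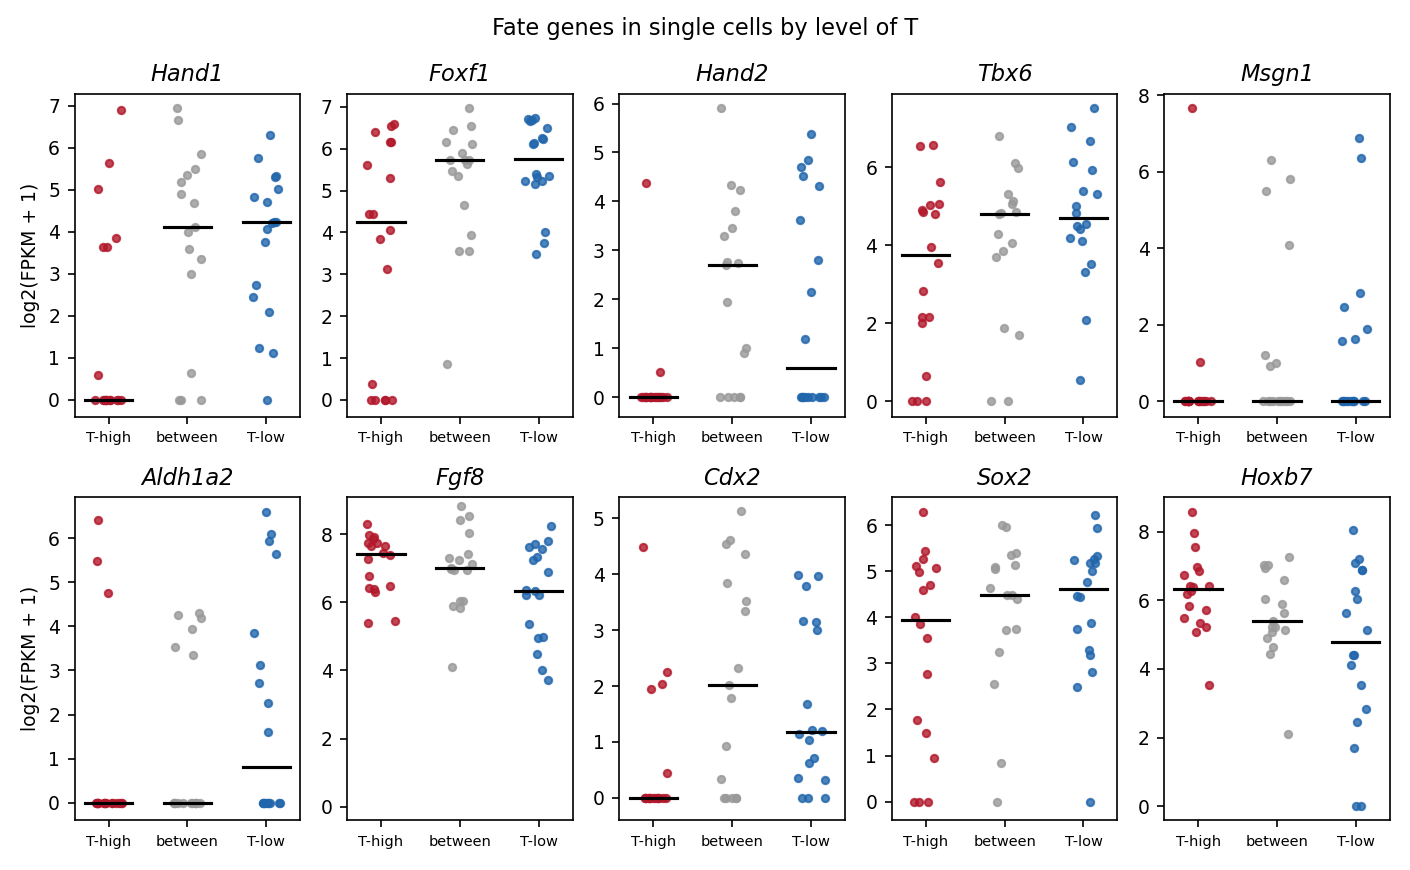
Each point is 1 cell, with log2(FPKM + 1) on the vertical axis and the 18 T-high, 17 intervening and 18 T-low cells in columns, and black bars are medians. Hand1 was detected in 6 of 18 T-high cells against 17 of 18 T-low cells and Foxf1 in 12 against 18, Hoxb7 was above the T-low median in 17 of 18 T-high cells, and the T-high and T-low cells overlapped in every panel.

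Sorted bulk libraries from the same study, 1 library a group and so without replicate error, give the level of these genes by sort. The T+ Sox2+ library had the sort of the single cells but was of TS12, made with another kit and scaled separately. In WT embryos at TS12, Foxf1 was at 3.29 FPKM in T+ Sox2+ cells, 24.4 in T+ cells and 0.851 in Sox2+ cells. Hand1 was at 5.14, 29.1 and 2.34 FPKM and Osr1 at 4.38, 38.5 and 1.06 FPKM in the same order of fractions. T mRNA was at 341, 141 and 192 FPKM in that order, so the library sorted as T+ held less T mRNA than the one sorted as Sox2+, against its label, and the fractions are named here by their sort alone.

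Genes of presomitic mesoderm were not higher in the cells with more T. Of the 20 listed, 12 were compared, with 0 higher and 2 lower, against 6.87% and 7.31% of all compared genes. The median was -0.19. The median cell of both groups held 9 of the 12. The lower ones were Tbx6 (-1.09) and Aldh1a2 (-1.02). Tbx6, the T-box factor that turns progenitors to paraxial mesoderm, was at 0, 12.5 and 93.2 FPKM in T-high cells, against 0.451, 24.9 and 181 FPKM in T-low cells, and was detected in 14 T-high and 17 T-low cells. The groups overlapped over most of their range, and within the cells with more genes the difference was 0.15. Aldh1a2 was detected in 3 T-high cells and 9 T-low cells.

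Msgn1, which drives presomitic differentiation, was detected in 2 of 18 T-high cells (11.1%, 1.38 to 34.7%) and in 7 of 18 T-low cells (38.9%, 17.3 to 64.3%), and its difference of -0.73 was under the counted size. Msgn1 passed the filter of 11 cells only through T-low cells, so its lower value in T-high cells was favoured by the filter. The cell with the most Msgn1, at 202 FPKM, was T-high. Dll1, a Notch ligand, was in every cell of both groups, at 8.46, 52.6 and 110 FPKM in T-high cells and 1.75, 31.9 and 327 FPKM in T-low cells (0.58). Rspo3, a secreted enhancer of Wnt signalling, was also in every cell, with medians of 276 and 213 FPKM in T-high and T-low cells (0.18).

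Cited1 had the strongest correlation with T of all 8568 compared genes, and a negative one. It was at 265, 548 and 1493 FPKM in T-high cells, against 690, 999 and 1494 FPKM in T-low cells. Of the T-high cells, 16 lay below the T-low median and 12 below every T-low cell, while 2 T-high cells lay above that median. The difference was -0.89, under the counted size of 1. Spearman's rho with T, both adjusted for the number of genes, was -0.65 over the 53 cells and -0.44 over the 17 cells between the groups, as a description of cells that share a chip. The difference was -1.13 within sites 1 to 19 and -0.72 within sites 20 to 47. Cited1 was picked by its correlation with T over these same cells, which favoured its separation between the groups.

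Bulk T+ cells of T knockout embryos gave other values for the same list. T knockout (T KO) cells carry the T2J/2J genotype and are labelled C57BL/6J, the WT cells C57BL/6N, so that strain and genotype cannot be told apart, and each has 1 library a stage. At TS12, of 7829 genes with at least 5 FPKM, 0.945% were higher and 0.984% lower in T KO than in WT cells, and at TS13, of 7914, 1.12% and 1.44%. Of the presomitic list, 12 genes had at least 5 FPKM, a set that holds Meox1 and not Mesp1, and 8 of them were lower in T KO cells at TS12 and 11 at TS13, with medians of -1.87 and -2.11. Msgn1 had 3.48 FPKM in the T KO library of TS12 and 56.9 in the WT one, and Tbx6 had 5.13 and 21.4. Cited1 was lower in T KO cells as well, at 39.5 against 148 FPKM at TS13 (-1.88), while in single WT cells it was lower where T was higher. T itself had 4.61 FPKM in the T KO library of TS12 and 69.8 in the WT one. Bulk libraries cannot tell fewer cells of a type from less RNA per cell.

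**Figure D4:**
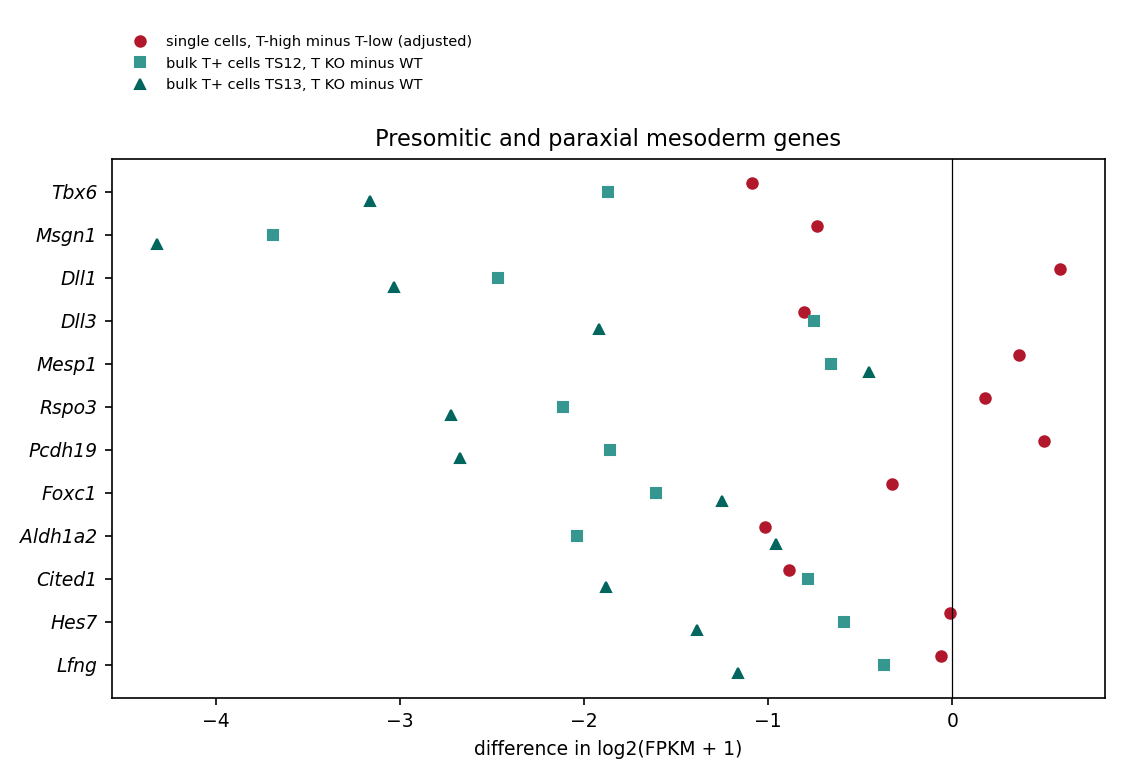
For the 12 compared presomitic and paraxial mesoderm genes, circles show the adjusted difference between T-high and T-low single cells, squares the T KO minus WT difference in bulk T+ cells at TS12 and triangles the same at TS13, in log2(FPKM + 1). All 12 genes lie below 0 in T KO at both stages, while single cells spread on both sides of 0 with a median of -0.19.

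In the same T KO libraries, of 8 lateral genes with at least 5 FPKM, 2 were lower and 0 higher at each stage, against the 0.984% and 1.44% of all genes that were lower at TS12 and TS13, with medians of -0.14 at TS12 and -0.58 at TS13. The lower ones at TS12 were Foxf1 (-1.11), at 17.5 FPKM in T KO and 38.8 in WT cells, and Tbx4 (-1.33). Hand1 was at 15.2 FPKM in T KO and 15.0 in WT cells at TS12. At TS13 Foxf1 was at 13.7 FPKM in T KO and 37.0 in WT cells (-1.37). Hand1 was at 10.3 FPKM in T KO and 14.7 in WT cells at TS13 (-0.47). Over all genes, of the 589 that were higher in T-high cells 526 had at least 5 FPKM in the TS12 pair, and 7 (1.33%) of these were higher and 1 (0.190%) lower in T KO. Of the 626 lower in T-high cells 586 did, with 3 (0.512%) higher and 7 (1.19%) lower in T KO, against 0.781% higher and 0.727% lower of all compared genes. In the TS13 pair, the stage of the cells, 531 of the 589 had at least 5 FPKM, with 11 (2.07%) higher and 1 (0.188%) lower in T KO. Of the 626, 574 did, with 1 (0.174%) higher and 7 (1.22%) lower, against 0.710% and 1.22% of all compared genes.

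Axial progenitor genes had a median difference near 0. Of 20 listed genes 19 were compared, 1 was higher and 2 lower, against 6.87% and 7.31% of all compared genes. The median was -0.01. Epha5, an ephrin receptor, was higher (1.09), and Fgf3 (-1.38), a secreted growth factor, and Cdx1 (-1.15), a caudal homeobox factor, were lower. Within the cells with more genes Cdx1 differed by 0.32. Fgf8, the main FGF ligand of the tail bud, was at 40.9, 171 and 316 FPKM in T-high cells, against 12.3, 80.4 and 302 FPKM in T-low cells. It was above 0 in every cell, 15 T-high cells lay above the T-low median, and the difference of 0.94 was under the counted size.

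Other progenitor genes gave smaller differences. Wnt3a, the Wnt ligand that sustains T, had medians of 21.3 and 32 FPKM in T-high and T-low cells (-0.60). Cyp26a1, which degrades retinoic acid, had medians of 174 and 170 FPKM (-0.01), Fgf17 29.4 and 23.3 FPKM (0.66), and Mixl1, a primitive streak homeobox factor, 5.47 and 2.45 FPKM (-0.04). Nkx1-2, a homeobox factor of caudal progenitors, was detected in 3 and 7 cells (-0.69). Nkx1-2 passed the filter only through T-low cells, so its lower value in T-high cells was favoured by the filter. Its difference was 0.66 within the cells with fewer genes and stayed negative within those with more. Cdx2, a caudal homeobox factor, was detected in 4 T-high and 11 T-low cells (-0.92), at no more than 21.5 and 14.8 FPKM, whereas the bulk T+ Sox2+ library of TS12 had 108 FPKM, a level made with another kit and scaled separately.

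Sox2 was sorted on, and how the gate bears on its mRNA level was not tested. It was at 0, 14.3 and 77.4 FPKM in T-high cells and 0, 23.6 and 73.9 FPKM in T-low cells, and was detected in 14 and 17 cells (-0.90). The groups overlapped almost wholly. Of 18 neural genes, 8 were compared, 1 was higher and 0 lower, against 6.87% and 7.31% of all compared genes. The median was 0.18. Pax6, a homeobox factor of neural progenitors, was the higher one (1.14), detected in 6 T-high cells (33.3%, 13.3 to 59.0%) and 2 T-low cells (11.1%, 1.38 to 34.7%). With 11 cells in all, Pax6 only just met the filter and did so through its T-high cells. Sox3, a SoxB1 factor like Sox2, was detected in 6 and 7 cells (-0.13), and Sox1, which marks the neural plate, in 1 cell of each group.

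Hox genes of the trunk were spread in both directions. All 15 listed central Hox genes were compared, 4 were higher and 2 lower, against 6.87% and 7.31% of all compared genes. The median was 0.13. Hoxb7 was at 10.6, 79.0 and 381 FPKM in T-high cells, against 0, 27.3 and 261 FPKM in T-low cells (1.67). Every T-high cell held Hoxb7, and 17 of 18 lay above the T-low median. Hoxa7 (1.20), Hoxa6 (1.16) and Hoxd8 (1.13) were the other higher genes, and Hoxa5 (-1.27) and Hoxb6 (-1.05) the lower ones. Hox genes lie close together and have related sequences, and how fragments were shared among them is not given in the sources used here.

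Signalling readouts showed no common direction, and their counts stand against 6.87% of all compared genes higher and 7.31% lower. Of 12 Wnt targets 0 were higher and 0 lower, with a median of 0.12. Of 11 FGF targets, Spred1 (1.20), an inhibitor of the MAP kinase pathway, was higher and Dusp6 (-1.19), a phosphatase of the same pathway, lower, with a median of -0.30, and Dusp6 differed by 0.49 within the cells with fewer genes and by 0.19 within sites 1 to 19. Of 11 Notch and clock genes 1 was lower, with a median of -0.18. It was Hey1, a Notch target repressor, with -1.81, detected in 4 of 18 T-high cells (22.2%, 6.41 to 47.6%) and 13 of 18 T-low cells (72.2%, 46.5 to 90.3%). Retinoic acid genes had a median of -0.51 over 8, with Aldh1a2 lower, which passed the filter only through T-low cells.

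Genes of cell state differed in both directions, and their counts stand against 6.87% of all compared genes higher and 7.31% lower. Of 17 S phase genes Rrm2, a subunit of ribonucleotide reductase, was lower (-1.08), and of 16 genes of G2 and M phase Ccnb2, a mitotic cyclin, was higher (1.36), with medians of -0.23 and -0.12. The summed FPKM of the S phase list was 1094, 1630 and 3619 in the lowest, median and highest T-high cell and 1406, 2206 and 2868 in T-low cells. Of 7 mesenchymal genes 2 were lower, the cadherin Cdh11 (-1.32) and the intermediate filament Vim (-1.04), and Vim differed by 0.20 within the cells with more genes and Cdh11 by 0.39 within sites 1 to 19. Of 7 epithelial genes 1 was higher, the keratin Krt18 (1.33), which differed by -0.08 within sites 1 to 19. Of 5 pluripotency genes 0 were higher and 0 lower.

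Markers of other caudal cell types were at 0 or low for some types and not for others. Of the 9 notochord and node genes, Foxj1, Pifo and Dynlrb2 were listed at 0 in every cell, and Noto, a node homeobox factor, was detected in 0 T-high cells and 1 T-low cell. Shh was detected in 1 cell of each group and Foxa2 in 3 T-high cells and 1 T-low cell. The list's summed FPKM was 0, 3.80 and 145 in T-high cells and 0, 9.25 and 134 in T-low cells, and 12 of 18 T-high and 7 of 18 T-low cells did not have Nog, the 1 compared member, detected. Blood and endothelium had 6 of 14 genes at 0 in every cell, among them the embryonic globins Hbb-y, Hbb-bh1 and Hba-x. Lmo2, a cofactor of blood and endothelial progenitors, was detected in 11 of 18 T-high and 15 of 18 T-low cells, and 7 T-high and 3 T-low cells had none of the 3 compared members. The list's summed FPKM was 0, 10.3 and 149 in T-high cells and 0, 21.2 and 197 in T-low cells, and its part in the other differences was not tested. Of the endoderm list, 0 of 10 genes in the table were detected in enough cells to be compared. Of 11 dissociation stress genes 2 were compared, and Ier2, an immediate early gene, was lower (-1.78), with medians of 2.89 and 41.7 FPKM in T-high and T-low cells. The summed FPKM of that list was 0, 29.4 and 181 in T-high cells and 0, 72.8 and 201 in T-low cells, and its part in the other differences was not tested.

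Outside the lists, genes were named by the size of the difference and by their correlation with T. The largest positive differences, among genes of the same sign among the cells with more genes and among those with fewer, were Nit2 (2.69), Surf1 (2.59), Caml (2.31), Fh1 (2.24), Sec61a2 (2.23), Hist1h2bj (2.21), Snx4 (2.2), Hist1h2bl (2.17), Adat1 (2.16) and Mthfd2l (2.15). Nit2 is an amidase, Surf1 helps to assemble cytochrome c oxidase, Fh1 is fumarate hydratase, Snx4 is a sorting nexin and Adat1 edits transfer RNA. The histone genes have near-identical copies, and their values are uncertain. Fh1 was at 0, 76.9 and 232 FPKM in T-high cells, against 0, 11.9 and 186 FPKM in T-low cells. All 10 genes were at 0 in at least 1 cell of both groups, and Hist1h2bj and Mthfd2l passed the filter only through T-high cells.

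The largest negative differences were Fam109a (-3.20), Txlng (-3.07), Magohb (-2.99), Cops6 (-2.90), Mcts2 (-2.71), Psme1 (-2.51), Mogat2 (-2.49), Mmadhc (-2.45), Cep44 (-2.45) and Cmtm8 (-2.40). Magohb belongs to the exon junction complex, Cops6 to the COP9 signalosome and Psme1 activates the proteasome, and Mcts2 is a close copy of Mcts1, so its value is uncertain. Fam109a was detected in 2 of 18 T-high cells (11.1%, 1.38 to 34.7%) and 14 of 18 T-low cells (77.8%, 52.4 to 93.6%). Cops6 had medians of 7.35 and 79.5 FPKM in T-high and T-low cells.

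Correlation with T, adjusted for the number of genes, was over 0.3 for 2.30% of compared genes and under -0.3 for 2.49%. The genes named here and in the next paragraph were picked by this correlation over the same cells. A separation of T-high from T-low cells, also within site ranges, was thus favoured in advance. Ggnbp2 had the highest rho, 0.53, at 6.16, 72.1 and 189 FPKM in T-high cells, against 0, 17.1 and 86.4 FPKM in T-low cells, and 8 T-high cells lay above every T-low cell. Its difference of 2.11 was 2.29 within sites 1 to 19 and 2.42 within sites 20 to 47. It was followed by Adat1 (0.50), Dst (0.49), which links the cytoskeleton, Hist1h3c (0.49), Akap11 (0.48), which anchors protein kinase A, Bclaf1 (0.47), Stra6l (0.47) and Zfp692 (0.47). Akap11 was detected in 8 of 18 T-high cells and 0 of 18 T-low cells (0%, 95% interval 0 to 18.5%). Akap11, Hist1h3c and Stra6l passed the filter through the T-high cells alone. After Cited1 the lowest were Gmpr (-0.57), Timm13 (-0.54), Zfp777 (-0.52), H2afz (-0.52), Txlng (-0.51), Mogat2 (-0.50) and Wdr4 (-0.49). Of these, Gmpr and Zfp777 passed the filter only through T-low cells.

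H2afz, the histone variant H2A.Z, was among the most abundant of these genes and was in every cell. It was at 848, 2438 and 3856 FPKM in T-high cells, against 2202, 3584 and 4861 FPKM in T-low cells, and 17 of 18 T-high cells lay below the T-low median (-0.56). Timm13, a chaperone of mitochondrial import, was at 9.94, 173 and 296 FPKM in T-high cells, against 89.0, 302 and 700 FPKM in T-low cells, and all 18 T-high cells lay below the T-low median (-1.02). Gmpr, guanosine monophosphate reductase, was listed at 0 in all 18 T-high cells and was detected in 8 of 18 T-low cells (44.4%, 21.5 to 69.2%). In the T KO libraries H2afz had 801 FPKM, against 734 in WT cells, at TS12 and 627, against 928, at TS13.

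**Figure D5:**
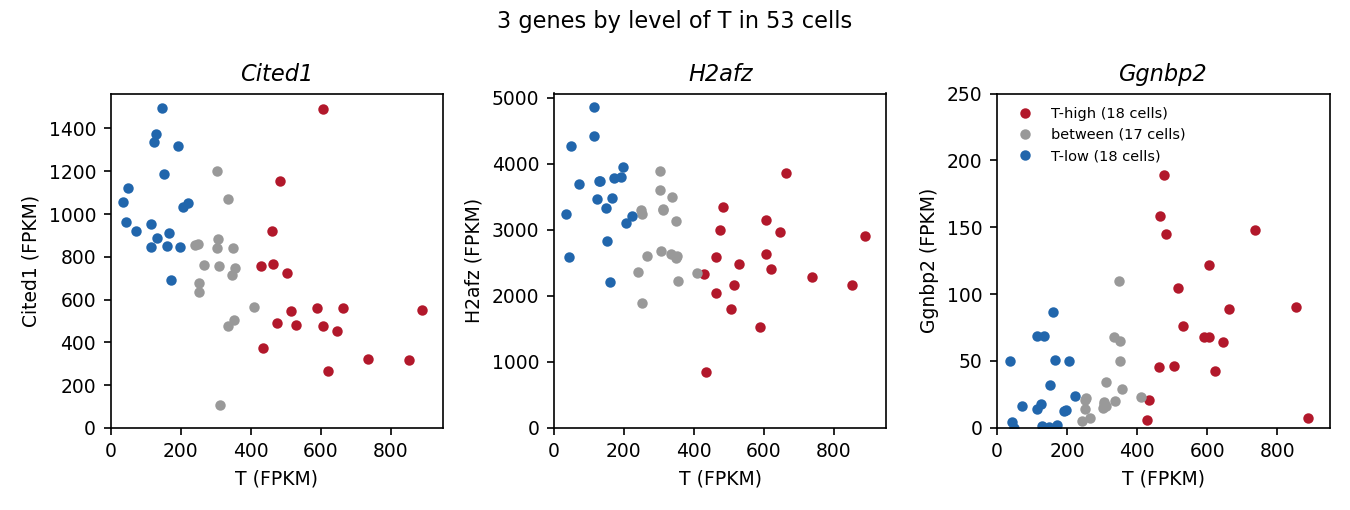
The FPKM of Cited1, H2afz and Ggnbp2 is plotted against the FPKM of T, with 1 point for each of the 53 cells. Adjusted for the number of genes, rho with T was -0.65 for Cited1, -0.52 for H2afz and 0.53 for Ggnbp2, and in each panel the T-high and T-low cells overlap in level.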

How the data were processed

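The values are FPKM as the authors deposited them, with 1 row for each gene. Per the submitters' processing notes, tools for the cells were TopHat2 2.1.0, Bowtie, Cufflinks 2.2.1 and Cuffnorm on mm10, and for the bulk libraries Cuffdiff. The annotation and the scaling between cells are not stated there. Per the labels, polyA RNA was amplified, spike-ins were added, and libraries for 55 capture sites were made with Nextera XT. The table holds 53. Cells were called present by eye, and doublets were not tested.

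From these values, cells were ranked by T and log2(FPKM + 1) was compared by least squares in Python 3.11.15 (numpy 2.4.6), with genes of at least 1 FPKM per cell as covariate. The script was tested on simulated data. T, numbered gene models, small RNA genes, ribosomal pseudogenes and mitochondrial genes were left out of counts. Compared genes passed only if detected in 11 of 53 cells.

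The members and lists were chosen with earlier results of these data known. Named were 16 key genes, up to 3 genes per list and direction with a difference of at least 1, the 10 genes of largest difference and the 8 of largest correlation in each direction. Other list members were named after their values were seen. FPKM from 3 tables scaled separately were never subtracted across tables.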

Additional observations from a re-analysis of the deposited data

How the results depend on the processing

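No paired analysis was possible because the T-high and T-low cells share no replicate number that pairs them, and no test was made. The median of the lateral mesoderm list was negative under all alternatives, and -1.84 with a pseudocount of 0.1. Its lower members numbered 1 with a pseudocount of 5, with 26 cells a group or without sites 90 to 95; 2 within the cells with more genes; and 3 with genes detected in 26 cells, with 13 cells a group, with FPKM rescaled to 1 sum, without the 5 cells with the fewest genes or within the cells with fewer genes. Without sites 41 to 47, like sites 90 to 95 an alternative chosen after seeing the data, 2 were lower. Genes higher and lower numbered 1287 and 1407 with a pseudocount of 0.1, 135 and 185 with 5, 314 and 376 with 26 cells a group, 1280 and 996 within the cells with more genes, 989 and 1476 within those with fewer, and 25 and 37 at a difference of 2. By the share of cells detected, at 30 percentage points, they numbered 168 and 199. Without the covariate 340 were higher. Within the cells with more genes Cdx1 was at 0.32, Tbx6 at 0.15 and Vim at 0.20, and within those with fewer Dusp6 at 0.49, each with its sign reversed. Leaving out each cell in turn, also chosen after seeing the data, gave 574 to 679 higher genes and 627 to 734 lower, a lateral median of -1.23 to -0.86 and 4 to 6 lower members. Of 53 named genes with a difference of at least 1, 49 kept their sign under every alternative other than leaving out single cells, which was run for the counts and the lateral list alone, and the comparison within site ranges, where 50 kept theirs and Cdh11, Dusp6 and Krt18 did not in sites 1 to 19. So did 8 of 21 list medians under the same alternatives. The causes were not tested. The 53 genes were chosen for the size of their difference in these same cells, so kept signs were favoured. The genes named for the largest differences were also picked for the same sign within the cells with more genes and within those with fewer. For them, these alternatives could not reverse the sign, and their kept signs there show nothing further. Unknown depth per cell limits what a value of 0 can show.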
